A study of Mus musculus with 8 samples.

Results

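The nuclear genes of the mitochondrial respiratory chain and ATP synthase were followed across 4 sorted cell groups of the mouse embryo. Members were taken by name from the array's gene symbols: the Nduf subunits of complex I, the 4 Sdh subunits of complex II, the Uqcr subunits and Cyc1 of complex III, the Cox4 to Cox8 subunits of complex IV, the Atp5 subunits of ATP synthase, and Cycs. This gave 83 of the 31890 genes on the array, each represented by its brightest probe. Of these, 80 passed the filter on dim signals and were tested, among 19538 genes tested in all. Cox7b2, Cox8b and Cox8c were not well above background on any of the 8 arrays. Cox4nb (now Emc8) matched by name alone and encodes no chain subunit, so the complexes below hold 79 tested subunits. Atp5f1 (now Atp5pb) and Uqcr (now Uqcr11) carry older names.

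The respiratory chain passes electrons from NADH (complex I) and succinate (complex II) through ubiquinone, complex III and cytochrome c to complex IV, which reduces oxygen, and ATP synthase uses the proton gradient that results. A few complex IV subunits exist in alternative isoforms, which are made in muscle or testis or under low oxygen in place of the common subunit. In blood formation, stem cells are known for low reliance on respiration and for a rise in it as they differentiate.

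The cells came from 100 pooled Tg(Ly6a-GFP) embryos at embryonic day E10.5, whose mothers were F1 hybrids of C57BL/6 and 129S1/SVImJ and whose fathers carried Tg(Ly6a-GFP). The AGM region (aorta, gonads and mesonephros) was taken with the umbilical and vitelline arteries; all samples were labelled male. In the transgene the regulatory sequences of Ly6a, which encodes the stem cell antigen Sca-1, drive green fluorescent protein (GFP), and every group carried it. The GFP+ groups were 30000 hematopoietic cluster cells, which bud from the artery wall and were sorted as CD31+ VEC+ ESAM+ Kit+, and 70000 endothelial cells, sorted as CD31+ VEC+ ESAM+ Kit-. The GFP- groups were 130000 hematopoietic cluster cells and 300000 endothelial cells of the same gates. Each group's RNA was divided into 2 fractions that were amplified and hybridised to 1 array each. The 2 arrays of a group therefore share a pool of embryos, and p-values measure only the technical spread between arrays. In sorted pools, fewer cells of a kind and less RNA per cell cannot be told apart.

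Levels are given as scaled signals: log2 of the scanner's processed signal minus the array's 75th percentile. A value of 0 is thus the 75th percentile itself, and a fold change is a difference of such values. The 75th percentiles ran from 708 to 1477 signal units, the share of probes well above background was 54.6% to 63.7%, and no spot was saturated. Replicate 1 of every group lay on 1 slide and replicate 2 on the other. Cluster markers such as Kit and Runx1 were higher in GFP+ cluster cells than in GFP+ endothelial cells for all 6 genes of that list, and all 6 endothelial markers were lower. Among GFP- cells the classes were less apart: 5 of 6 cluster markers were higher in cluster cells and 1 was not called, at -0.29. Of the 6 endothelial markers, 4 were lower there and 2 were not called. The probes of Uqcrc2 repeated 10 times on each array, with an SD from 0.02 to 0.08 log2 units.

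The GFP comparison within endothelial cells called the most chain genes. With the 75th percentile scaling, 64 of 80 members fell in GFP+ endothelial cells relative to GFP- endothelial cells, where 33.3% of all genes tested fell and 51.5% were called in either direction (limma, adjusted p under 0.05). No member rose, against 18.1% of all genes, and at an unadjusted p under 0.05 there was 1 higher and 70 lower. The median log2 fold change of the members was -0.38, against -0.13 over all genes. Differences were of the same sign on both slides for 77 members, and the medians within slide 1 and slide 2 were -0.38 and -0.37. For 23 members the array held 30 further probes, and 28 of these differed in the same direction as the brightest one. With normexp background correction of the raw spot means, no member was called, and 58 genes rose and 42 fell among all genes tested. The members' median was then -0.08, above the median of -0.26 over all genes.

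Bright genes in general were lower in the same comparison. Of the 80 members, 62 lay in the brightest decile of all genes tested, and that decile of 1954 genes had a median log2 fold change of -0.32. With quantile normalization, which gives every array the same distribution of signals, the brightest decile had a median of 0.004. The members then fell in 24 of 80 cases and rose in 9, with a median of -0.12, while 22.4% of all genes fell and 21.0% rose. The same 24 members were called lower under both scalings, and 23 of them are chain subunits. Atp5g3, a gene for the membrane ring of ATP synthase, turned from -0.19 and lower to 0.17 and higher. For most members the call therefore depended on the scaling, and both scalings are given for the results that follow.

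**Figure D1:**
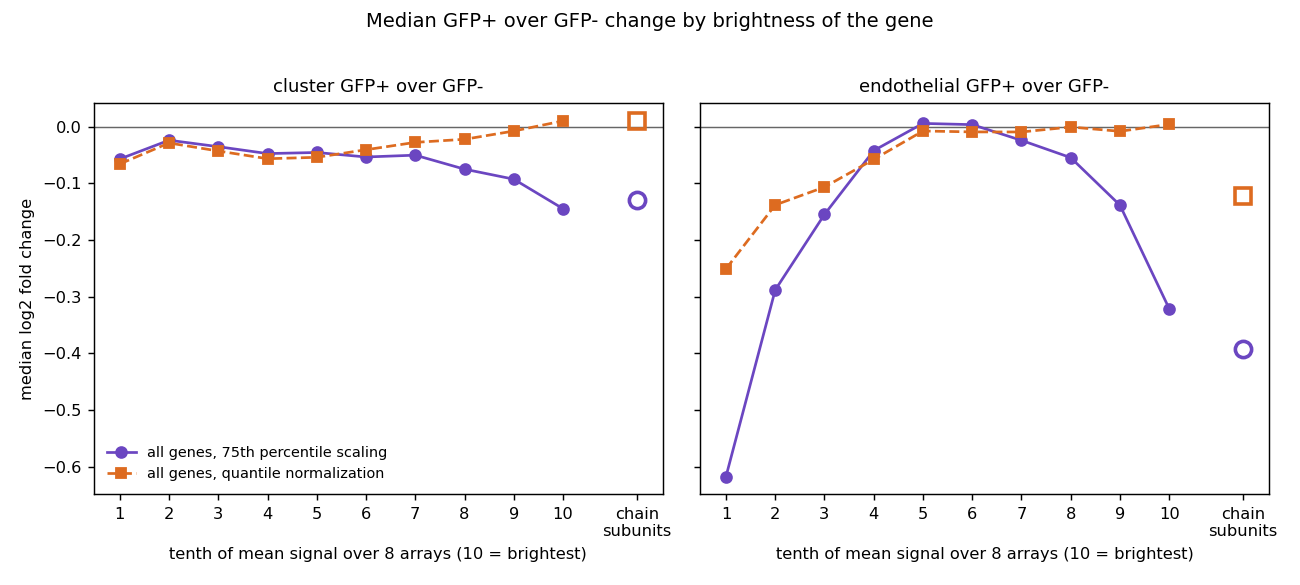
Median log2 fold change of all genes tested (y axis) by decile of mean signal (x axis, 10 is the brightest), for GFP+ over GFP- in cluster cells and endothelial cells, with the 75th percentile scaling (circles) and quantile normalization (squares). Open symbols at the right are the medians of the 79 chain subunits. In endothelial cells the brightest decile lies at -0.32 with the 75th percentile scaling and at 0.004 with quantile normalization, and the subunits lie below the brightest decile under both.

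Markers of other cells moved with GFP. All 8 erythroid markers fell in the GFP+ cells of both classes, with medians of -4.08 in cluster cells and -2.79 in endothelial cells. Their mean scaled signal over the list lay between -1.50 and -1.42 in GFP+ endothelial cells against 1.188 to 1.190 in GFP- endothelial cells, and between -1.27 and -1.23 in GFP+ cluster cells against 2.61 to 2.64 in GFP- cluster cells. All 7 macrophage markers rose with GFP in both classes, with medians of 1.87 in cluster cells and 1.55 in endothelial cells. Their mean lay between -1.48 and -1.45 in GFP+ endothelial cells against -2.96 to -2.79 in GFP- endothelial cells, and between 0.18 and 0.28 in GFP+ cluster cells against -1.71 to -1.61 in GFP- cluster cells. Of 6 mesenchyme markers, 5 fell and 1 rose with GFP in each class. All 8 erythroid markers were also higher in GFP- cluster cells than in GFP- endothelial cells, by a median of 1.43, and negative in the interaction, by a median of -1.30. Of 4 hepatic and yolk sac markers, 3 fell in GFP+ endothelial cells and 2 in GFP+ cluster cells, where 1 rose. The 3 platelet markers rose in GFP+ cluster cells and 2 of them fell in GFP+ endothelial cells. The part of these cells in the chain's differences was not tested.

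Cytochrome c, the mobile carrier between complexes III and IV and a trigger of apoptosis when released, had the largest fall of any chain subunit in this comparison with the 75th percentile scaling. Cycs had scaled signals of 4.60 and 4.53 in GFP+ endothelial cells, against 5.23 and 5.31 in GFP- endothelial cells. The log2 fold change was -0.70 ± 0.07 (SE, adjusted p = 0.00109), a level 1.63-fold lower, and it was -0.39 with quantile normalization (adjusted p = 0.00939). In cluster cells Cycs had 4.74 and 4.57 in GFP+ cells against 4.85 and 4.84 in GFP- cells, and the difference of -0.20 ± 0.07 did not pass the test. The arrays of the groups did not overlap in either class, which also held for 67.2% of all genes tested in cluster cells and 80.7% in endothelial cells. The Cycs probe lies at chr6:50515092-50515151 (mm9, the build of the array design). The GFP difference in cluster cells minus that in endothelial cells was 0.51 ± 0.10 log2 units (limma interaction, adjusted p = 0.0173), and this difference had an adjusted p of 0.051 with quantile normalization.

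Ndufa4, named as a complex I subunit but counted today as a part of complex IV (probe at chr6:11850423-11850482, mm9), followed a similar pattern. Its scaled signals were 4.47 and 4.40 in GFP+ endothelial cells, against 4.98 and 5.05 in GFP- endothelial cells. The log2 fold change was -0.58 ± 0.05 (adjusted p = 0.000824), or -0.27 with quantile normalization (adjusted p = 0.00947). GFP+ cluster cells had 4.43 and 4.34 and GFP- cluster cells had 4.56 and 4.55, a difference that did not pass the test. GFP- endothelial cells thus had the highest Ndufa4 of the 4 groups, above every array of the other groups.

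In complex I, 29 of 35 subunits fell in GFP+ endothelial cells and none rose, with a median of -0.40; 11 fell under both scalings. Of the 28 accessory subunits, which surround the catalytic core, 25 fell, and the median over all 28 was -0.42. Of the 7 core subunits, which carry the flavin and iron-sulfur clusters, 4 fell, and the median over all 7 was -0.19; the difference between these parts was not tested. Ndufb4, an accessory subunit of the membrane arm, had scaled signals of 4.48 and 4.56 in GFP+ endothelial cells and 5.11 and 5.19 in GFP- endothelial cells. Its log2 fold change was -0.63 ± 0.06 (adjusted p = 0.000816), or -0.33 with quantile normalization. Ndufs6, a zinc-binding accessory subunit, changed by -0.53 (-0.21 with quantile normalization, also called). In the core, Ndufs1, the large iron-sulfur subunit at the site of NADH oxidation, had a log2 fold change of 0.10 that did not pass the test, and 0.35 with quantile normalization, which did.

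For 66 chain subunits RefSeq (GRCm38.p6) gave the sequence at the gene's start, and the 250 bases before it were searched on both strands for 3 motifs. These 66 include Cox7b2 and Cox8b, which were not well above background on any array and hold none of the motifs. The core of the site of NRF1, a factor known for respiratory genes, was searched as GCANGCGC, the cyclic AMP response element as TGACGTCA and the ETS core as CCGGAAG; matches of different motifs may overlap. The NRF1 core was found for 21 of 66 subunits (31.8%), and for 8.9% of the 27025 genes of the table. The response element was found for 5 of 66 (7.58%, against 1.77% of all genes) and the ETS core for 12 (18.2%, against 7.83%). Among the 21 subunits with a sequence that fell under both scalings, 8 held the NRF1 core (38.1%), 3 the response element (14.3%) and 2 the ETS core (9.52%). The motifs were chosen after the Cycs sequence was seen, and a match describes letters in this window, not measured binding. The sequences of Cycs and Ndufb4 are shown because both fell under both scalings and hold matches, and that of Ndufa4 because it fell likewise and holds none. They lie at chr6:50566570-50566819 (minus strand), chr16:37654369-37654618 (minus strand) and chr6:11907451-11907700 (minus strand), are printed 5′ to 3′, and carry in capitals the NRF1 core (1 match in Cycs and 3 in Ndufb4) and the response element (1 match in Cycs).
Cycs: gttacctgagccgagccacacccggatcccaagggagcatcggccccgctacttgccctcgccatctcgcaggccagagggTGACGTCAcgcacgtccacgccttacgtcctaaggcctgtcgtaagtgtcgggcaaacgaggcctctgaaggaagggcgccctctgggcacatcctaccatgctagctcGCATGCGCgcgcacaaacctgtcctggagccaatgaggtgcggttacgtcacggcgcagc
Ndufb4: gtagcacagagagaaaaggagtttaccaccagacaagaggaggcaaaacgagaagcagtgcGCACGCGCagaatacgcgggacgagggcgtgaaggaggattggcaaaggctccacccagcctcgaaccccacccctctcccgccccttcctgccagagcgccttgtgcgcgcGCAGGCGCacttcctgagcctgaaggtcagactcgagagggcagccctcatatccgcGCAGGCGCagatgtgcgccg
Ndufa4: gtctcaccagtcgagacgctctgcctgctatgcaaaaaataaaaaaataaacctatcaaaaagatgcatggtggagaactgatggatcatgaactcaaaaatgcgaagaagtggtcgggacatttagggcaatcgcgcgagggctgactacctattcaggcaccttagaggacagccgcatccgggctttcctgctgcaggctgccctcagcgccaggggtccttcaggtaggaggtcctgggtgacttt

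In complex II, which also serves the citric acid cycle, all 4 subunits fell in GFP+ endothelial cells with the 75th percentile scaling, and none was called with quantile normalization. Sdhb, the iron-sulfur subunit, had 4.77 and 4.87 in GFP+ endothelial cells against 5.28 and 5.38 in GFP- endothelial cells, a log2 fold change of -0.51 ± 0.07 (adjusted p = 0.00307), which became -0.18 (adjusted p = 0.0735) with quantile normalization. Sdhd, a membrane anchor, changed by -0.24, Sdhc, the other anchor, by -0.23 and Sdha, the flavoprotein, by -0.15.

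In complex III, 7 of 8 subunits fell and 2 did so under both scalings. Those were Uqcrq, a small accessory subunit, at -0.56 (-0.23 with quantile normalization), and Uqcrfs1, the Rieske iron-sulfur protein, at -0.48 (-0.26). Cyc1, the heme-bearing cytochrome c1, did not follow them. It had scaled signals of 3.998 and 4.035 in GFP+ endothelial cells against 3.77 and 3.87 in GFP- endothelial cells, and its log2 fold change of 0.19 ± 0.07 did not pass the test (adjusted p = 0.062), while 0.41 with quantile normalization was called higher. Cyc1 and Ndufs1 were thus on the other side of 0 from most subunits under both scalings.

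In complex IV, 10 of 11 common subunits fell, with a median of -0.39; Cox6a1, at -0.19, did not pass the test and was called higher (0.20) with quantile normalization. Cox7b, a small subunit on the X chromosome, had 5.24 and 5.31 in GFP+ endothelial cells against 5.85 and 5.97 in GFP- endothelial cells, and its log2 fold change was -0.63 ± 0.06 (adjusted p = 0.000741), or -0.29 with quantile normalization. Cox7c, another small subunit, changed by -0.57 (-0.31). Both were called under both scalings. Cox4i1, the common form of subunit IV, changed by -0.35 with the 75th percentile scaling and by -0.01, not called, with quantile normalization.

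In ATP synthase, 9 of 14 subunits fell, 3 of them under both scalings. Those 3 belong to the membrane part: Atp5l (subunit g) at -0.56, Atp5k (subunit e) at -0.52 and Atp5j2 (subunit f) at -0.49, or -0.23, -0.20 and -0.15 with quantile normalization. Of the 5 F1 subunits, which form the catalytic head, 2 fell. Atp5a1, the F1 alpha subunit, had 5.89 and 5.86 in GFP+ endothelial cells against 5.88 and 5.91 in GFP- endothelial cells, a log2 fold change of -0.01; with quantile normalization it was 0.34 and called higher.

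**Figure D2:**
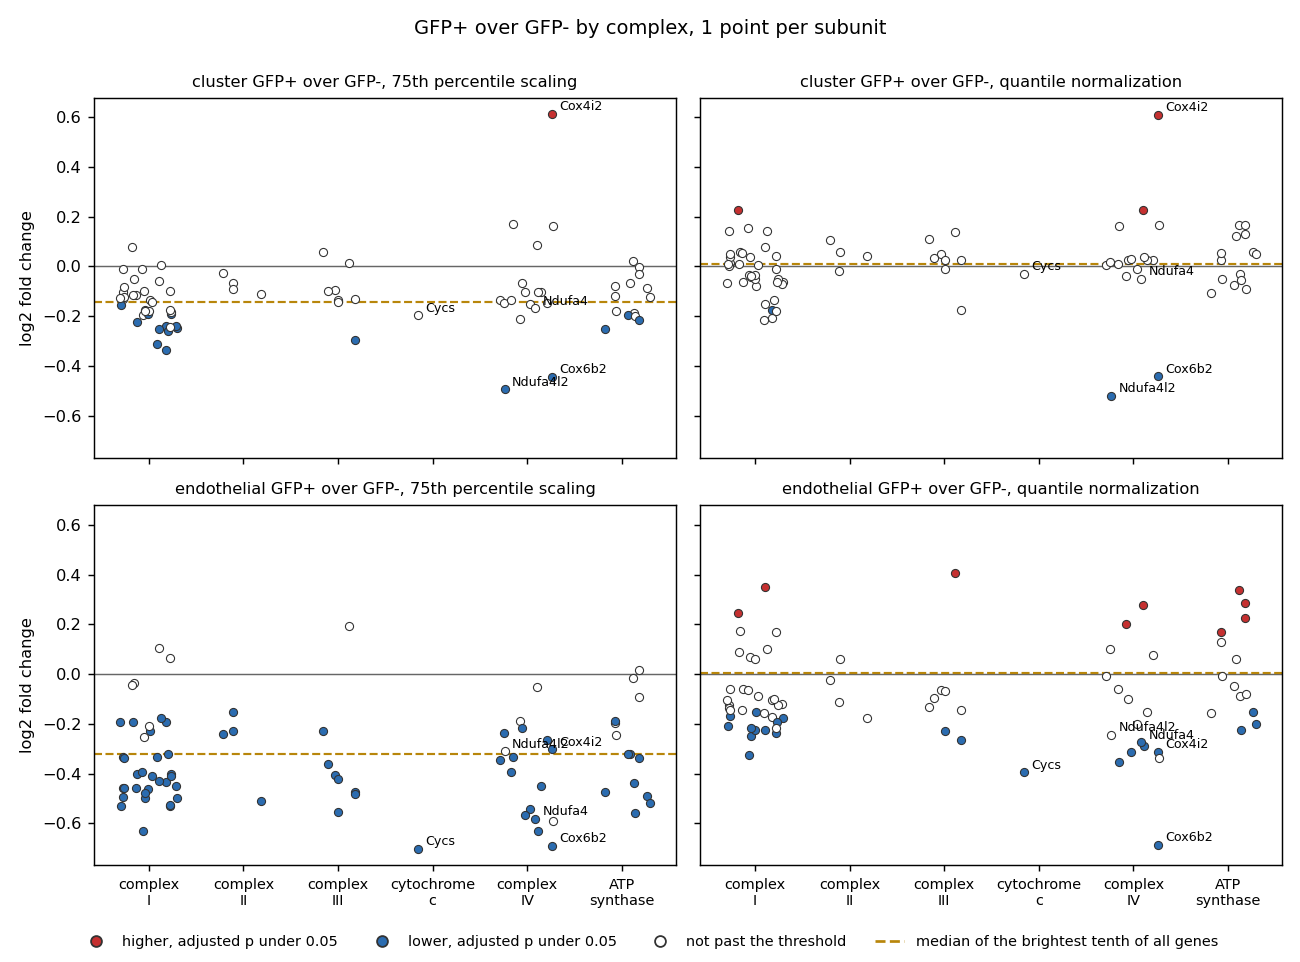
Log2 fold change of GFP+ over GFP- (y axis) for each of the 79 chain subunits by complex (x axis), in cluster cells (upper panels) and endothelial cells (lower panels), with the 75th percentile scaling (left) and quantile normalization (right). Filled points passed the test, and the dashed line is the median of the brightest decile of all genes. Cycs lies at -0.70 and -0.39 in endothelial cells, and Cox4i2 at 0.61 under both scalings in cluster cells.

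The GFP comparison within cluster cells called fewer subunits. With the 75th percentile scaling 18 of 80 members fell in GFP+ cluster cells, against 20.9% of all genes tested (32.7% in either direction), and Cox4i2 alone rose, against 11.8% of all genes. The median was -0.13, beside -0.08 over all genes and -0.14 in the brightest decile, and it turned to 0.01 with quantile normalization. There 3 members rose and 3 fell, beside 13.7% and 17.3% of all genes. Of the 18, 12 were complex I subunits, all accessory, such as Ndufa1 at -0.34 ± 0.07 (adjusted p = 0.0196), and with quantile normalization Ndufa10 alone of them remained. In complex III, Uqcrfs1 fell by 0.30 on the log2 scale, and no subunit of that complex was called with quantile normalization. Of the 14 ATP synthase subunits 3 fell, and none was called with quantile normalization. None of the 4 complex II subunits was called, and none had an unadjusted p under 0.05.

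The count of lower calls in cluster cells fell when any 1 array was left out, as did the count over all genes tested. Without 1 array it ran from 1 to 10, with 1 when GFP- replicate 1 was left out, 3 without GFP+ replicate 2, 4 without GFP- replicate 2 and 10 without GFP+ replicate 1. It was 29 with trend and robust moderation and 0 with normexp background correction, where 63 genes rose and 64 fell among all genes tested. The medians within slide 1 and slide 2 were -0.12 and -0.15.

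The interaction, which asks whether the GFP difference was the same in both classes, was positive for 30 of 80 members and negative for none, where 15.7% of all genes were called positive, 15.5% negative and 31.1% in either direction (limma; at an unadjusted p under 0.05 the members had 41 and 1). A positive value here means a smaller fall, or a rise, in cluster cells. The median was 0.22, beside 0.05 over all genes and 0.17 in the brightest decile. With quantile normalization 8 were positive and 2 negative, where 12.6% of all genes were positive and 16% negative, and the median was 0.09. With normexp background correction no member was called, beside 0 positive and 1 negative among all genes tested. The members' median then turned to -0.07, below the median of 0.20 over all genes. Called positive under both scalings were Cox4i2, Cox7a1, Cox7b and Cox7c of complex IV, Ndufa5, Ndufb4 and Ndufs6 of complex I, and Uqcrc1 of complex III, a large subunit on its matrix side. Uqcrc1 had 2.43 on both GFP+ cluster arrays against 2.36 and 2.38 in GFP- cluster cells, and 2.49 and 2.53 in GFP+ endothelial cells against 2.73 and 2.74 in GFP- endothelial cells. The number of positive calls fell when any 1 array was left out, as did the number over all genes tested. The median of the members then ran from 0.19 to 0.25.

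Between the classes, GFP- and GFP+ cells gave different counts. In GFP- cells, 43 of 80 members were lower in cluster cells than in endothelial cells and 1 was higher, where 12.4% and 11.9% of all genes were called, or 24.3% in either direction. The median was -0.23, beside 0.004 over all genes and -0.14 in the brightest decile. Ndufa4 differed by -0.46 ± 0.05 (adjusted p = 0.00471) and Cycs by -0.42 ± 0.07 (adjusted p = 0.0134). With quantile normalization 8 members were lower and 1 was higher, where 9.35% and 10.4% of all genes were called, and the median was -0.08. Ndufa4 (-0.27), Ndufs8 (-0.33) and Uqcrc1 (-0.27) were among the 8, while Cycs, at -0.24, was not called. With normexp background correction no member was called, beside 10 higher and 4 lower among all genes tested. The members' median then turned to 0.09, above the median of -0.18 over all genes. Leaving out any 1 array lowered the number of lower calls, among the members and among all genes tested, and the members' median ran from -0.25 to -0.20. Markers of other cells differed too: 8 of 8 erythroid (median 1.43) and 6 of 7 macrophage markers (median 1.29) were higher in GFP- cluster cells. Lower were 4 of 6 mesenchyme (median -0.33), 3 of 4 hepatic and yolk sac (median -0.54) and 2 of 3 platelet markers (median -1.14). Their part in the chain's differences was not tested.

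In GFP+ cells, 11 of 80 members were higher in cluster cells than in endothelial cells and 8 were lower, while 26.1% and 24.2% of all genes were called, or 50.4% in either direction. The median was 0.004, beside 0.03 over all genes, and no subunit of complex II or of ATP synthase was called or had an unadjusted p under 0.05. With normexp background correction no member was called, beside 100 higher and 37 lower among all genes tested. Subunits lower in GFP+ cluster cells included core subunits of complex I and Cyc1. Ndufs8, an iron-sulfur subunit, had 1.97 and 1.96 in GFP+ cluster cells against 2.30 on both GFP+ endothelial arrays, a log2 fold change of -0.34 ± 0.04 (adjusted p = 0.00222). Ndufs1 and Cyc1 changed by -0.29 and -0.30.

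Higher in GFP+ cluster cells were small subunits of complexes III and IV, the isoforms described further on, and Ndufs6, Ndufa5 and Ndufb10 of complex I. Cox8a, a small membrane subunit of complex IV, had 6.32 and 6.36 in GFP+ cluster cells against 6.03 and 6.07 in GFP+ endothelial cells, a log2 fold change of 0.28 ± 0.06 (adjusted p = 0.00984). Uqcr, the smallest accessory protein of complex III, differed by 0.23, Cox7b by 0.21, Cox7c by 0.20 and Ndufs6 by 0.18. Of these 19 calls, lower and higher, 18 also held with quantile normalization, and the exception was Cox6a2, at 0.50 (adjusted p = 0.142). With that normalization 11 members were higher and 10 lower, beside 22% and 26.3% of all genes. Centring each array on its median instead gave 4 higher and 26 lower and turned Ndufs6, Ndufa5 and Ndufb10 to -0.04, -0.07 and -0.06. Without GFP+ endothelial replicate 1, 3 were higher and 5 lower, and without GFP+ endothelial replicate 2, 7 were higher and 3 lower; without either GFP+ cluster array 5 were higher. Markers of other cells differed in the same comparison: all 7 macrophage markers were higher in GFP+ cluster cells (median 1.80) and 5 of 6 mesenchyme markers lower (median -0.81). Of 3 platelet markers 2 were higher and 1 lower (median 1.08), of 8 erythroid markers 2 were higher and 1 lower (median 0.17), and of 4 hepatic and yolk sac markers 2 were higher and 2 lower. Their part in the chain's differences was not tested.

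**Figure D3:**
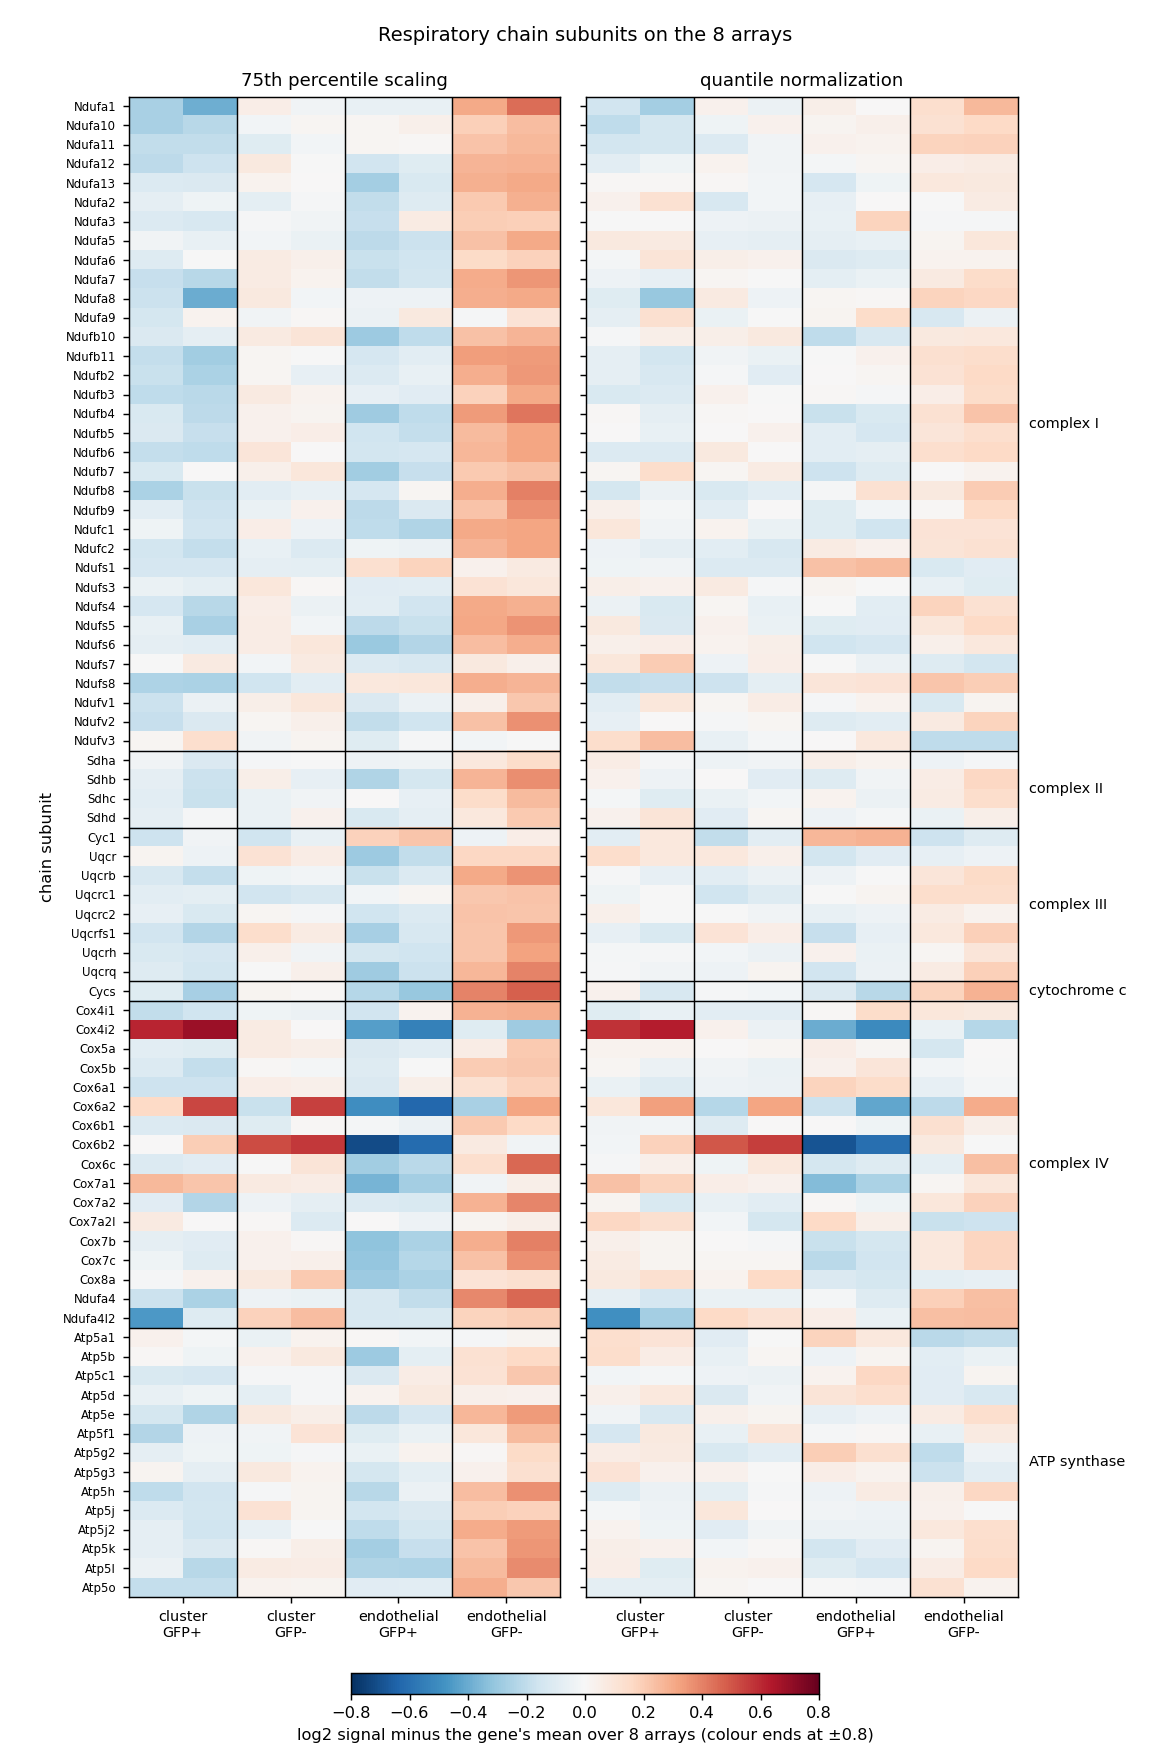
Chain subunits (rows, by complex; 1 of the 79 is not drawn) on each of the 8 arrays (columns, 2 per group), as log2 signal minus that gene's mean over the 8 arrays, with the 75th percentile scaling (left) and quantile normalization (right); red is above and blue below the gene's mean. The GFP- endothelial columns at the right of each panel are the reddest, with the highest group mean for 66 of 79 subunits at the left and 46 of 79 at the right.

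Across the 4 groups, GFP- endothelial cells had the highest mean of 66 of 79 chain subunits with the 75th percentile scaling, and of 33.4% of all genes tested. With quantile normalization this was 46 of 79, beside 30.2% of all genes. With the 75th percentile scaling, the lowest mean lay in GFP+ endothelial cells for 39 subunits (40.2% of all genes) and in GFP+ cluster cells for 36 (32.3% of all genes). GFP- cluster cells were lowest for 4 (7.94% of all genes) and GFP- endothelial cells for none (19.5% of all genes). With quantile normalization the lowest mean was more evenly spread, over 29 subunits in GFP+ endothelial, 20 in GFP+ cluster, 18 in GFP- cluster and 12 in GFP- endothelial cells, beside 31.6%, 33.4%, 12.5% and 22.5% of all genes in the same order of groups.

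The alternative isoforms of complex IV are given apart from the common subunits. Their signals were low: all 5 that were tested had scaled signals below 0 on all 8 arrays, and Cox6a2 was well above background on 7 arrays. Levels of different probes are not set against each other, so each isoform is compared only with itself across groups.

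Cox4i2, the form of subunit IV known from lung and from low oxygen, had its highest signals in GFP+ cluster cells. Its scaled signals were -1.40 and -1.32 in GFP+ cluster cells and -1.94 and -2.00 in GFP- cluster cells. In endothelial cells the order was the opposite, with -2.45 and -2.55 in GFP+ cells and -2.10 and -2.29 in GFP- cells. The log2 fold change was 0.61 ± 0.08 in cluster cells (adjusted p = 0.00328) and -0.30 ± 0.08 in endothelial cells (adjusted p = 0.0247), and the interaction was 0.91 ± 0.11 (adjusted p = 0.00492). Between the GFP+ groups, cluster cells were higher by 1.14 ± 0.08 on the log2 scale (adjusted p = 0.00028), or 2.20-fold. With quantile normalization these values were 0.61, -0.31, 0.92 and 1.05, all called. Its common partner Cox4i1 differed by -0.14 and -0.12 in the cluster GFP and GFP+ class comparisons, neither called. The Cox4i2 probe lies at chr2:152590711-152590770 (mm9).

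Cox6b2, known as the testis form of subunit VIb (probe at chr7:4703488-4703547, mm9), was highest in GFP- cluster cells. It had -1.01 and -0.81 in GFP+ cluster cells and -0.49 and -0.44 in GFP- cluster cells, then -1.73 and -1.63 in GFP+ endothelial cells and -0.94 and -1.03 in GFP- endothelial cells. The fall with GFP was -0.44 ± 0.08 in cluster cells (adjusted p = 0.0112) and -0.69 ± 0.08 in endothelial cells (adjusted p = 0.00176), and the interaction did not pass the test. With quantile normalization the GFP differences were -0.44 and -0.69. Cluster cells were higher than endothelial cells by 0.77 ± 0.08 among GFP+ cells (adjusted p = 0.00108) and by 0.52 ± 0.08 among GFP- cells (adjusted p = 0.0111). It was the member called higher in the GFP- class comparison. The common partner Cox6b1 fell by 0.22 with GFP in endothelial cells (-0.10 and not called with quantile normalization) and differed by -0.07, not called, in cluster cells.

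Cox7a1, the heart and muscle form of subunit VIIa, had -1.15 and -1.19 in GFP+ cluster cells and -1.34 and -1.35 in GFP- cluster cells, against -1.78 and -1.68 in GFP+ endothelial cells and -1.44 and -1.36 in GFP- endothelial cells. It fell by 0.33 on the log2 scale in GFP+ endothelial cells (adjusted p = 0.00504), and the interaction was 0.50 ± 0.08 (adjusted p = 0.00837). GFP+ cluster cells were higher than GFP+ endothelial cells by 0.56 ± 0.05 (adjusted p = 0.000781), where its common partner Cox7a2 differed by -0.05. The upstream sequences of this pair are shown because the genes encode the same subunit and moved differently. They lie at chr7:30183921-30184170 (plus strand) for Cox7a1, which holds none of the 3 motifs, and chr9:79759854-79760103 (minus strand) for Cox7a2, with 1 NRF1 core in capitals (RefSeq, GRCm38.p6).
Cox7a1: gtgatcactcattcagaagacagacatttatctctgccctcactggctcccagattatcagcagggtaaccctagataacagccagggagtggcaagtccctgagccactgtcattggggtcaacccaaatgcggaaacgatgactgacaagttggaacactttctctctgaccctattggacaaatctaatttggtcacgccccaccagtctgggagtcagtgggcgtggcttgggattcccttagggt
Cox7a2: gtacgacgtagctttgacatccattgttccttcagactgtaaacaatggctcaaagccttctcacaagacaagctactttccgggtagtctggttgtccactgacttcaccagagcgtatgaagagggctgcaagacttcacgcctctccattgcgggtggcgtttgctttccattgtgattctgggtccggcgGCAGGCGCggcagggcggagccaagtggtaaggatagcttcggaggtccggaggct

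Ndufa4l2, the low-oxygen paralog of Ndufa4, had -4.05 and -3.70 in GFP+ cluster cells against -3.41 and -3.35 in GFP- cluster cells, a log2 fold change of -0.49 ± 0.11 (adjusted p = 0.0232), or -0.52 with quantile normalization. It thus moved opposite to Cox4i2, another gene known to respond to low oxygen, in the same comparison. Cox6a2, the heart and muscle form of subunit VIa, had -4.27 and -3.89 in GFP+ cluster cells against -4.92 and -5.05 in GFP+ endothelial cells. The log2 fold change of 0.91 ± 0.30 passed with an adjusted p of 0.0499 and was 0.50 (adjusted p = 0.142) with quantile normalization. Cox7a2l, which helps join complexes III and IV and is no isoform of the enzyme, was not called with the 75th percentile scaling in any comparison; with quantile normalization it was higher with GFP in cluster cells (0.23) and in endothelial cells (0.28).

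**Figure D4:**
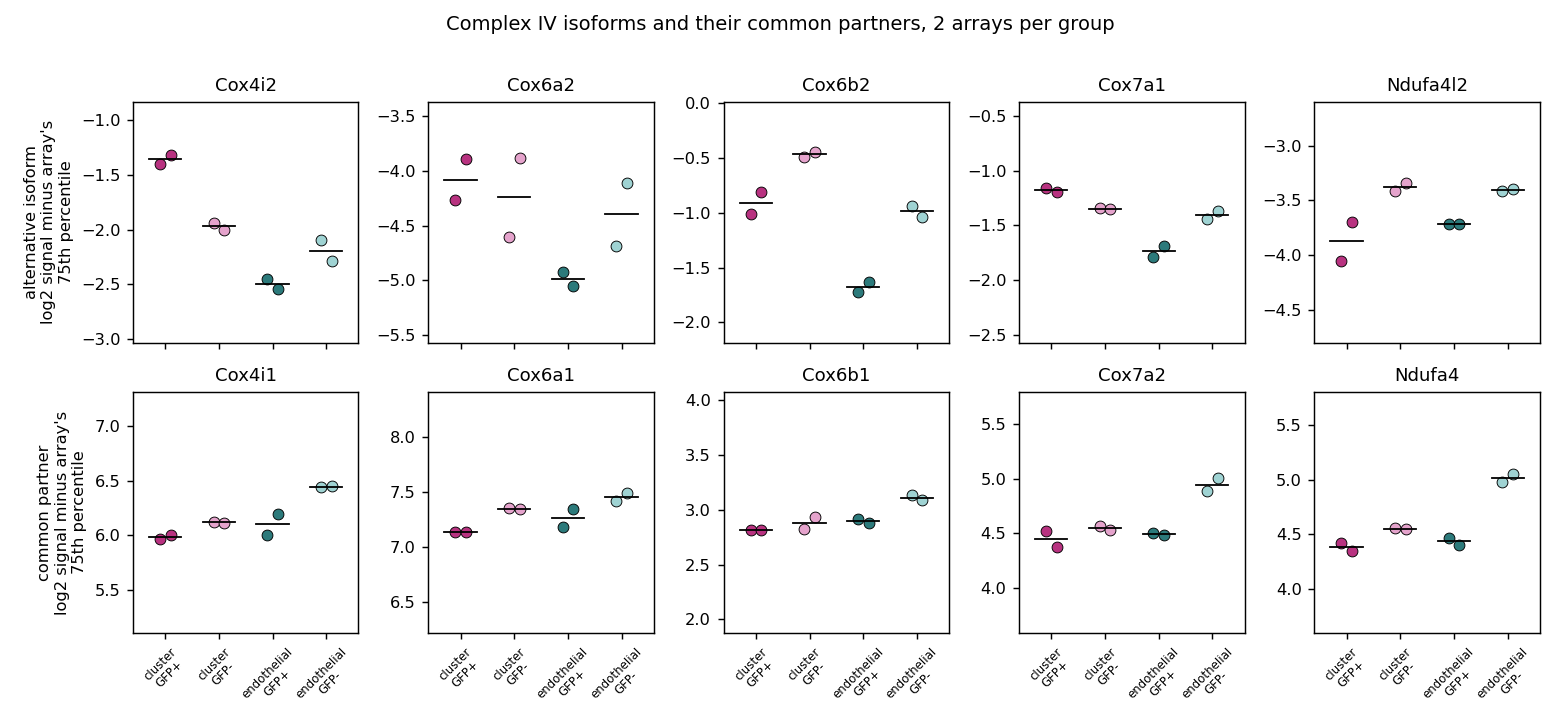
Scaled signals (y axis, log2 signal minus the array's 75th percentile) of 5 alternative complex IV isoforms (upper row) and their common partners (lower row) in the 4 groups (x axis), with 1 point per array and a line at the group mean; each panel spans 2.2 log2 units and has its own position. Cox4i2 is highest in GFP+ cluster cells and lowest in GFP+ endothelial cells, while the 5 common partners in the lower row are highest in GFP- endothelial cells with this scaling.

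Other mitochondrial genes were counted in the same fit. Of the 12 chain genes encoded in mitochondrial DNA, 7 fell in GFP+ endothelial cells and none rose (unadjusted p under 0.05: 9 and 0), with a median of -0.26, and with quantile normalization 2 fell and 2 rose. ND3, a complex I subunit, changed by -0.52. Of 76 tested genes for proteins of the mitochondrial ribosome, which translates the messages of that DNA, 57 fell and 2 rose, with a median of -0.31. This list held its direction with quantile normalization, where 40 fell, 6 rose and the median was -0.18. Mrps18c, a small-subunit protein, changed by -0.72 ± 0.06 (adjusted p = 0.000542) and Mrpl33, a large-subunit protein, by -0.65.

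Of all genes tested, 33.3% fell and 18.1% rose in this comparison (22.4% and 21.0% with quantile normalization), and the counts for assembly factors, citric acid cycle enzymes and biogenesis regulators lay near or below that share of falls. Assembly factors fell in 16 of 43 cases and rose in 4 (10 and 4 with quantile normalization). Uqcc2, needed to assemble complex III, had 3.90 and 3.99 in GFP+ endothelial cells against 4.75 and 4.72 in GFP- endothelial cells, a log2 fold change of -0.79. Protein import genes fell in 15 of 23 cases, such as Tomm7 of the outer-membrane channel at -0.59, and none rose; with quantile normalization 6 fell and 2 rose. Regulators of biogenesis and mitochondrial DNA maintenance fell in 6 of 22 cases and rose in 2, and the largest called change was that of Ssbp1, which binds single-stranded mitochondrial DNA, at -0.79. With quantile normalization 5 of them fell and 4 rose. Citric acid cycle enzymes fell in 6 of 18 cases and rose in 1, and with quantile normalization in 3 and 4. Carriers and porins of the inner and outer membranes fell in 7 of 9 cases and rose in 1, and with quantile normalization 2 rose and none fell.

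Outside the mitochondrion, 11 of 17 glycolysis genes fell in GFP+ endothelial cells and 1 rose with the 75th percentile scaling, against 4 and 5 with quantile normalization. The largest fall was that of Slc2a1, the glucose transporter of red cells and endothelium, at -1.37. Of 20 proliferation genes, 9 fell and 2 rose, against 4 and 8 with quantile normalization. In the interaction, 38 of the 76 mitochondrial ribosome genes were positive and none negative (50 and 2 at an unadjusted p under 0.05), and 30 and 0 with quantile normalization.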

How the data were processed

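Per the labels' protocols, RNA of each sorted group was split in 2 fractions, amplified with Ovation RNA-Seq System V2, and 50 ng was labelled with Cy3 and hybridised to 1-colour Agilent arrays. The deposited scanner files hold spot intensity, and per the file headers they were made with Feature Extraction 10.10.1.1, whose processed signal is background-corrected. The deposited table of the authors' normalized intensity values, with a normalization not given in the sources used here, was an alternative; its columns followed the scanner's log2 values (r from 0.997 to 1.000 across probes) and each had a median of 198. No column of per-sample values was left unused (0).

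Of 43020 non-control spots, repeated spots were averaged to 39419 probes, and 10 probes were lost to outlier flags. Genes were named through RefSeq accessions (26049 probes), by current symbols (3194) or by the file's name (10176). The log2 processed signal minus the array's 75th percentile was fitted with limma 3.58.1 (R 4.3.3, with the data.table package at version 1.17.8): 1 mean per group over 8 arrays, 4 residual degrees of freedom, keeping genes whose brightest probe exceeded background clearly (the scanner's flag) on the 2 arrays of any group. P-values are 2-sided and Benjamini-Hochberg adjusted over all 19538 genes, with a threshold of 0.05; errors are SE. Precision is limited by the 2 arrays per group. The script was tested on simulated data.

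Alternatives were quantile normalization, normexp background correction (offset 50), centring on the median, the authors' deposited values, other filters and probe rules, trend and robust moderation, only the arrays compared, slide as a replicate block, and each array left out. Same-numbered arrays shared a slide, and their deviations correlated by 0.139 to 0.359 over 6 pairs of groups. The rule for naming members with values covered the markers Cycs and Ndufa4, Cyc1, alternative isoforms with partners and undetected members. It also covered the 2 largest called changes each way per complex and comparison, and called members against their complex's median. The 3 largest interactions and up to 3 genes per list completed it. Not every change under the rule is given, such as those of Ndufa8, Atp5e and Atp5o with GFP in cluster cells. Further members were named after their values were seen, and some items are not reported here. Members and lists were chosen with earlier results of these data known.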

Additional observations from a re-analysis of the deposited data

Results flagged for a closer look

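By the interaction test of limma, 30 of 80 members were called positive and none negative, beside 15.7% and 15.5% of all genes tested. With quantile normalization 8 members were positive and 2 negative, beside 12.6% and 16% of all genes. The 8 were also among the 30. The 9 genes given here are those 8 and Cycs, each with its log2 GFP effect in cluster cells minus that in endothelial cells. The difference was 0.91 for Cox4i2, which rose with GFP in cluster cells and fell in endothelial cells. It was 0.53 for Cox7b, 0.50 for Cox7a1 and 0.46 for Cox7c, further complex IV subunits. It was 0.51 for Cycs, 0.45 for Ndufa5, 0.44 for Ndufb4, 0.38 for Ndufs6 and 0.29 for Uqcrc1. These were called under both scalings except Cycs, whose adjusted p was 0.051 with quantile normalization. Erythroid markers differed between the classes in the opposite direction, with 8 of 8 negative (median -1.30), as did 3 of 6 mesenchyme and 3 of 6 endothelial markers. All 3 platelet markers (median 1.68) and 5 of 6 cluster markers (median 1.02) were positive, and of 7 macrophage markers 2 were positive and 1 negative (median 0.85). The part of these cells in the differences was not tested.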

How the results depend on the processing

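Values are given in the order cluster GFP, endothelial GFP, GFP+ class (cluster over endothelial), GFP- class and interaction. With normexp background correction no member was called (0) in either direction in any comparison. Few genes were called at all: 63, 58, 100, 10 and 0 higher and 64, 42, 37, 4 and 1 lower among the 19538 tested. At an unadjusted p under 0.05 there were 1, 2, 3, 0 and 1 members, and medians were -0.12, -0.079, 0.026, 0.090 and -0.071. Over all genes the medians with normexp background correction were -0.045, -0.26, 0.027, -0.18 and 0.20. This correction also turned Sdhd to 0.14 in endothelial GFP and Atp5j2, Sdhb and Sdhc to 0.067, 0.039 and 0.044 in the GFP- class. With quantile normalization members higher were 3, 9, 11, 1 and 8, members lower 3, 24, 10, 8 and 2, and medians 0.010, -0.12, -0.0044, -0.082 and 0.091. Of all genes, 13.7%, 21%, 22%, 10.4% and 12.6% were then higher and 17.3%, 22.4%, 26.3%, 9.35% and 16% lower. The authors' table gave the same member counts as quantile normalization and medians of 0.010, -0.12, -0.0041, -0.082 and 0.092. Over all genes it gave 4379 lower in endothelial GFP, against 4382 with quantile normalization. It is therefore no separate check on quantile normalization. Centring on the median gave 1, 0, 4, 1 and 1 higher, 2, 35, 26, 31 and 0 lower, and medians of -0.14, -0.31, -0.21, -0.38 and 0.15; it turned Ndufa5, Ndufb10 and Ndufs6 to -0.072, -0.065 and -0.036 in the GFP+ class. Without the filter on dim probes 1, 0, 4, 0 and 4 were higher and 1, 50, 7, 5 and 0 lower. Probes well above background on all 8 arrays gave 2 higher in cluster GFP and 1 in endothelial GFP, with a median of -0.36 in endothelial GFP. The mean of a gene's probes gave 1 higher and a median of -0.34 in endothelial GFP, and a median of -0.013 in the GFP+ class. Trend and robust moderation gave 29 lower in cluster GFP and 1 higher in endothelial GFP. With only the arrays compared, 3, 57, 7 and 17 were lower and 5 were higher in the GFP+ class. Within slide 2 alone the GFP+ class median was -0.031. Of single named members, 588 values kept their direction and side of the threshold, 295 were no longer past it and 7 turned. The cause of these differences was not tested.

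Slide as a replicate block gave 1, 1, 11, 1 and 32 higher and 21, 66, 10, 42 and 0 lower, so it moved no count by over 1.5 times except the 1 higher in endothelial GFP. Quantile normalization with the replicate block, chosen after seeing the data like the quantile counts of the other lists and the deciles of signal, gave 4, 8, 14, 1 and 9 higher, 3, 24, 12, 8 and 2 lower, and medians of 0.010, -0.12, -0.0044, -0.082 and 0.091. Leaving out 1 array gave 1 to 1, 0 to 0, 3 to 7, 0 to 1 and 8 to 19 higher, 1 to 10, 50 to 55, 3 to 8, 5 to 21 and 0 to 1 lower, and medians of -0.14 to -0.12, -0.41 to -0.35, -0.015 to 0.023, -0.25 to -0.20 and 0.19 to 0.25. A group left with 1 array was assumed to vary like the others, and calls over all genes tested also became fewer in each of these fits. With 2 arrays of 1 RNA pool per group, no value here measures the spread between pools.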

Other observations

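In GFP+ cells, 3 of 6 further lists of nuclear genes for mitochondrial proteins held more genes that were higher than lower in cluster cells relative to endothelial cells, where 26.1% of all genes tested were higher and 24.2% lower. The other lists did not, with 6 higher and 9 lower among 43 assembly factors, 4 and 6 among 18 citric acid cycle enzymes, and 0 and 1 among 9 carriers and porins. Of 76 mitochondrial ribosome genes, 25 were higher and 9 lower (28 and 8 with quantile normalization), such as Mrps10 at 0.50 and Mrpl47 at 0.47, with Mrps6 at -0.39 in the other direction. Of 23 protein import genes, 10 were higher and 1 lower under both scalings. Timm8a1, a carrier of the intermembrane space, differed by 0.44, and the chaperonin pair Hspd1 and Hspe1 by 0.43 and 0.38. Hspa9, the chaperone of the import motor, was the member that was lower, at -0.20. Among 22 regulators of biogenesis and mitochondrial DNA maintenance, 9 were higher and 2 lower (8 and 1 with quantile normalization), and Ppargc1a, a coactivator of mitochondrial biogenesis, differed by 0.90 ± 0.14 (limma, adjusted p = 0.00393). Its scaled signals were low, at -3.73 and -3.51 in GFP+ cluster cells and -4.40 and -4.64 in GFP+ endothelial cells. All genes of deciles 1 to 3 of mean signal, the dimmest, had medians of 0.71, 0.38 and 0.18 in this comparison. With quantile normalization these medians were 0.13, 0.06 and -0.005. The part of this shift in the Ppargc1a difference was not tested.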
